A study of Homo sapiens with 6 samples.

Results

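Sprouty, SPRED, DUSP and ETV genes form the feedback arm of the ERK pathway, and 10 of them were followed here in human cells on their way to definitive endoderm (DE), with and without saracatinib (SAR). SAR was developed as a drug that blocks kinases of the Src family. The genes are SPRY1, SPRY2, SPRY4, SPRED1, SPRED2, DUSP4, DUSP5, DUSP6, ETV4 and ETV5. They were chosen by name for their place in the pathway, with earlier results of these data known. Each symbol matched 1 of the 40396 genes in the expression table.

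H1 is an established line of human embryonic stem cells, and all libraries came from this 1 line after 3 days of DE differentiation. Control and SAR samples alike received 50 ng/mL activin A, a TGF-beta family ligand, and for the initial 24 h also 2.5 µM CHIR99021, a GSK3 inhibitor that activates Wnt signaling. The 3 SAR samples had 0.5 µM SAR for all 3 days, and the 3 control samples had the same volume of the solvent DMSO. It is not stated whether the samples of a group were separate cultures, so p-values measure only the spread between these samples, which may be technical.

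ERK is the last kinase of a cascade in which a growth factor receptor activates RAS, RAS activates RAF, RAF activates MEK and MEK activates ERK. ERK activity switches on genes that switch it off again. Sprouty and SPRED proteins act high in the cascade, between the receptor and RAF. DUSP proteins are phosphatases that remove the activating phosphates from ERK. ETV4 and ETV5 are ETS-family transcription factors that carry FGF and ERK signals into gene expression. Several genes of the group, but not all, are widely used as a readout of FGF signaling in embryos and stem cells. Transcript levels of these genes are not a measurement of ERK activity.

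Levels are given in FPKM, the fragments of a gene scaled by its length and by all fragments of its library, which allows genes to be compared within a library. Library totals recovered from the FPKM were 18877964 to 24419937 reads in control and 16681280 to 18389543 reads with SAR, and the 10 genes had between 162 and 4331 reads in a library. In a chi-square test of these reads, pairs of libraries within a group gave 4.38 to 13.9 per degree of freedom where sampling alone gives about 1, so none was a copy of another. Of all genes, the 16371 whose mean reached 0.5 FPKM were tested, and all 10 feedback genes were among them. Over the tested genes the median log2 fold change was 0.12 toward SAR, so that a gene with no shift relative to the others appears slightly higher in SAR. For this reason values are also given after rescaling each library by the median ratio of its tested genes, which sets that median to about 0.

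With SAR, DUSP5, DUSP4, SPRY4 and SPRY2 were lower and SPRED1 was higher, while SPRY1, SPRED2, DUSP6, ETV4 and ETV5 did not pass the test. The test was limma on log2(FPKM + 0.1), with Benjamini-Hochberg adjustment over all tested genes and a call at an adjusted p under 0.05. The 4 lower genes of 10 stand beside 9.55% of all tested genes that were called lower, and the 1 higher gene stands beside 23.7% called higher. The median log2 fold change of the 10 genes was -0.19. In 7 of the 10 genes the groups did not overlap, 6 of them lower and 1 higher with SAR. Among all tested genes this held for 50.7%, with 15.2% lower and 35.5% higher. One gene, DUSP5, was also below a log2 fold change of -1, as 1.58% of tested genes were, and no feedback gene was above 1, as 3.41% of tested genes were. After the rescaling 7 feedback genes were lower and 1 was higher, beside 15.5% and 13.8% of all tested genes, and their median was -0.31. Below -1 there was still DUSP5 alone, beside 2.21% of tested genes, and above 1 no feedback gene, beside 2.46%. The genes that joined were SPRY1, ETV4 and ETV5. Summed over the 10 genes, the level was 184 to 191 FPKM in control libraries and 148 to 159 FPKM in SAR libraries. In bulk RNA, fewer cells that express a gene and less RNA of it per cell cannot be told apart.

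**Figure D1:**
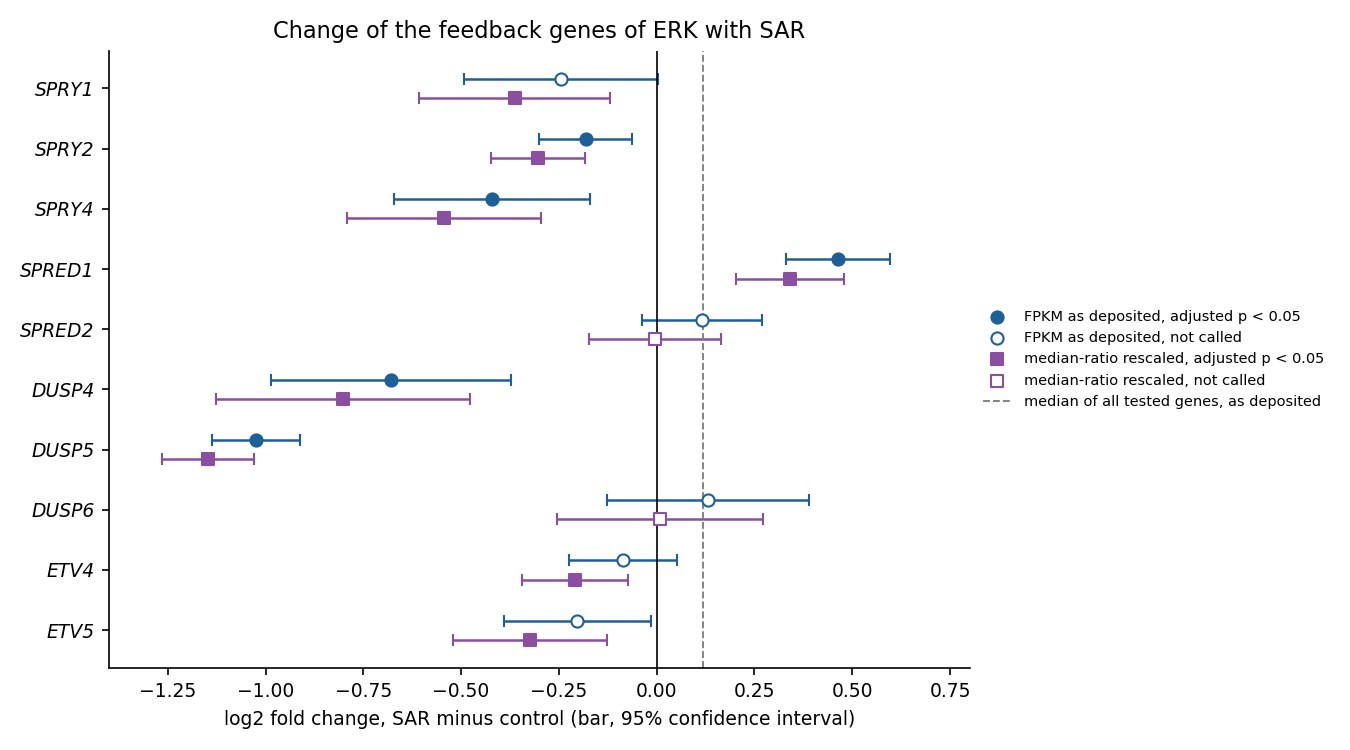
Log2 fold change of each feedback gene, SAR minus control on log2(FPKM + 0.1), with bars for the 95% confidence interval over 3 libraries a group. Circles are the FPKM as deposited, squares the values after median-ratio rescaling, filled symbols have an adjusted p under 0.05 in limma, and the dashed line is the median of all tested genes at 0.12. DUSP5 lies farthest to the left at -1.03, SPRED1 alone lies wholly to the right of 0 in both, and SPRED2 and DUSP6 cross 0 in both.

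The DUSP phosphatases divided. DUSP5, a nuclear phosphatase that acts on ERK and is itself induced by ERK, was the most abundant of the 10 genes in both groups and had the lowest fold change. It lies on chromosome 10 from 110497838 to 110511544 (GRCh38). Control libraries had 54.3, 53.7 and 55.4 FPKM, and SAR libraries had 26.7, 27.5 and 25.98 FPKM. The groups were far apart and narrow, with nothing between the highest SAR library and the lowest control library. The mean was 54.4 ± 0.869 FPKM (SD, n = 3) in control and 26.7 ± 0.747 FPKM (SD, n = 3) with SAR, 2.04-fold lower. On the log2 scale DUSP5 changed by -1.03 (SE 0.0476, adjusted p = 0.000107 in limma), and 2.49% of tested genes had a lower fold change. The call held in each of 15 alternative settings, those that left out 1 library included, with an adjusted p of at most 0.00169.

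DUSP4, a nuclear phosphatase that acts on ERK and on other MAP kinases, was also lower. Its control libraries had 17.6, 24.4 and 20.6 FPKM, and its SAR libraries had 11.6, 12.9 and 14.3 FPKM. Control replicate 2 was the highest and control replicate 1 the lowest of its group, yet even that one was above each SAR library. The mean went from 20.9 ± 3.39 to 12.9 ± 1.33 FPKM (SD, n = 3 each), a log2 fold change of -0.68 (SE 0.129, adjusted p = 0.00938 in limma). The call held in all 15 settings, with adjusted p values up to 0.0355.

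DUSP6, the phosphatase that holds and dephosphorylates ERK in the cytoplasm, is the member of the family most often used as an FGF readout, and it did not pass the test. Control libraries had 18.9, 19.97 and 19.0 FPKM, and SAR libraries had 20.8, 18.2 and 24.8 FPKM. The SAR libraries spread to both sides of the control libraries, with replicate 2 below all of them and replicate 3 well above. The log2 fold change was 0.13 with a 95% confidence interval from -0.13 to 0.39 (adjusted p = 0.383 in limma), and 0.01 after rescaling, with an interval from -0.25 to 0.27. Of the exon bases of DUSP6 on chromosome 12, 40.5% are shared with the antisense gene AC024909.2, which was listed at 0.026 to 0.169 FPKM. Whether counting used the strand is not stated, so reads of both cannot be told apart.

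**Figure D2:**
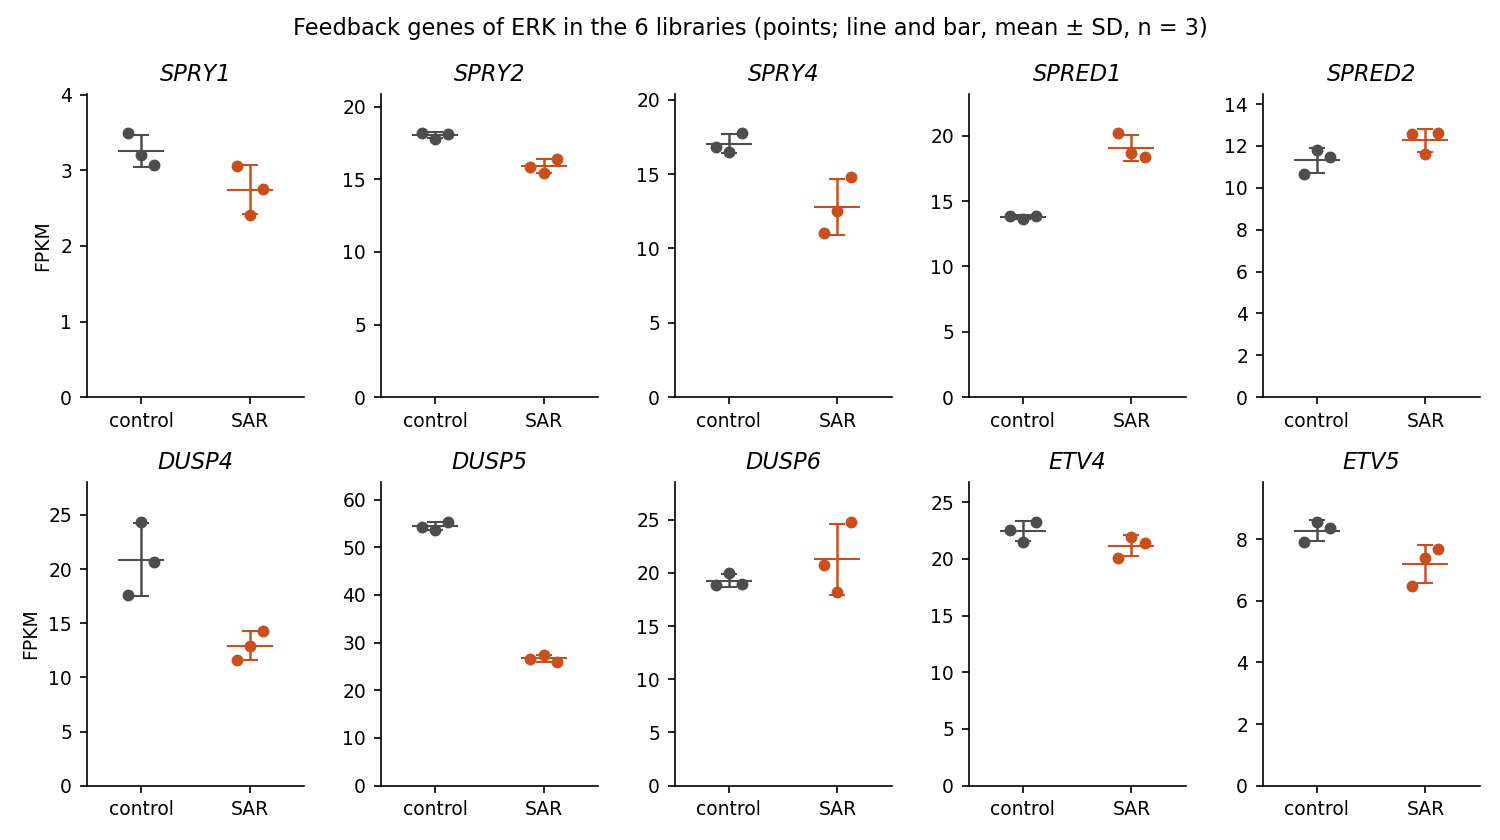
FPKM of each feedback gene in every library, with 3 control and 3 SAR points a gene a line at each group's mean and a bar for the SD. DUSP5 falls from about 54 to about 27 FPKM with tight groups, SPRED1 is higher in each SAR library, and the points of SPRED2, DUSP6 and ETV4 overlap between the groups.

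Ratios of 1 gene to another within a library show the fold changes above in a form that no rescaling of the library can move, and are no further evidence for them. These 6 pairs were set after the values had been seen. DUSP5 was 2.88, 2.69 and 2.92 times DUSP6 in control libraries, and 1.28, 1.51 and 1.05 times DUSP6 in SAR libraries. The highest ratio with SAR was thus far under the lowest in control. For DUSP4 over DUSP6 the mean ratio was 1.08 ± 0.143 in control and 0.614 ± 0.0828 with SAR (SD, n = 3 each), again with no overlap. Each of these ratios had p = 0.1 in an exact two-sided permutation test, which is the smallest p that 3 libraries against 3 can give and so cannot pass 0.05, and 0.15 after Benjamini-Hochberg adjustment over the 6 ratios.

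**Figure D3:**
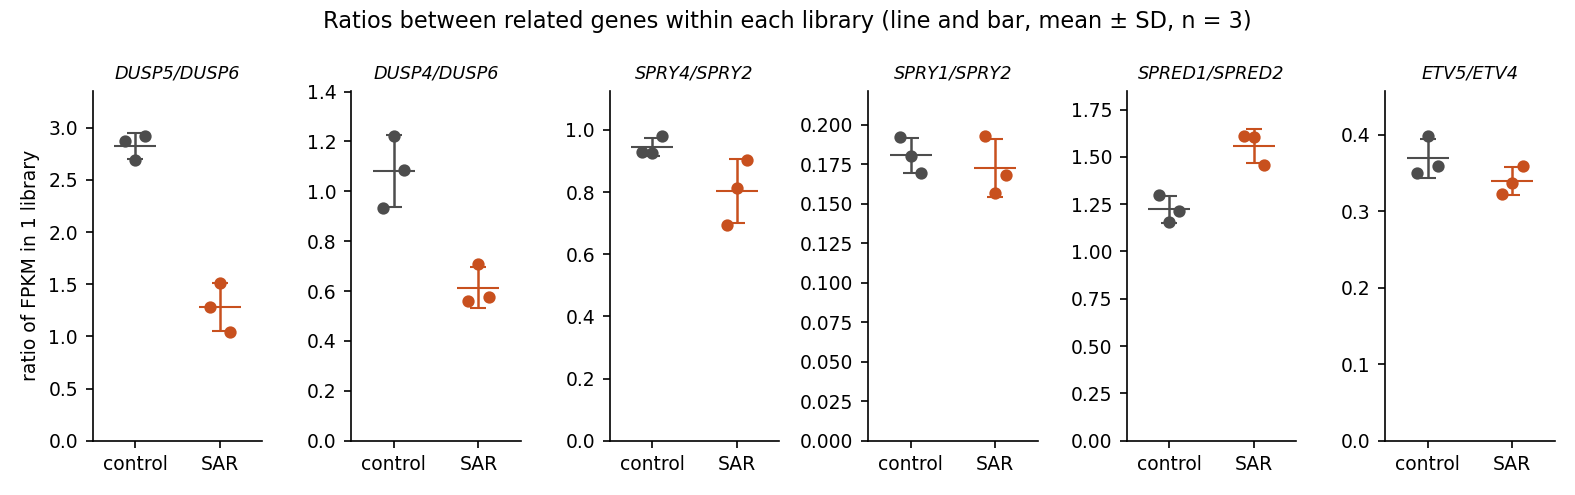
Ratio of FPKM between pairs of feedback genes in each library, 3 control and 3 SAR points a pair, with a line at the mean and a bar for the SD. DUSP5 over DUSP6 separates the groups most, with control libraries between 2.69 and 2.92 and SAR libraries between 1.05 and 1.51, and SPRY1 over SPRY2 and ETV5 over ETV4 overlap.

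The Sprouty genes code for membrane-associated proteins that block the signal from receptor tyrosine kinases to RAS and RAF. The 3 followed here were lower in every SAR library than in any control library, as were 15.2% of all tested genes. SPRY3, a further Sprouty gene, was under the filter and not tested. It had 0.342 FPKM in control and 0.401 FPKM with SAR on average, and its groups overlapped. SPRY4 had the largest difference. It lies on chromosome 5 from 142310427 to 142326455 and had 16.9, 16.5 and 17.8 FPKM in control libraries and 11.03, 12.5 and 14.8 FPKM in SAR libraries. The SAR libraries were spread over a wider range than the control libraries, and replicate 3 came nearest to control. The mean went from 17.0 ± 0.647 to 12.8 ± 1.90 FPKM (SD, n = 3 each), a log2 fold change of -0.42 (SE 0.106, adjusted p = 0.0238 in limma). That call was lost, with adjusted p values between 0.054 and 0.0817, without SAR replicate 2 or without any of the control replicates.

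SPRY2, on chromosome 13 from 80335976 to 80340951, was the most abundant Sprouty gene. Control libraries had 18.2, 17.8 and 18.1 FPKM, and SAR libraries had 15.9, 15.4 and 16.4 FPKM. Both groups were narrow and the gap between them was small, since the mean was 18.0 ± 0.206 FPKM in control and 15.9 ± 0.496 FPKM with SAR (SD, n = 3 each). The log2 fold change was -0.18 (SE 0.04998, adjusted p = 0.0317 in limma), or -0.30 after rescaling (adjusted p = 0.00666 in limma). Of 15 alternative settings 7 kept the call. It remained when SAR replicate 3 was left out and was lost when any of the other 5 libraries was, with adjusted p values between 0.0681 and 0.115.

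SPRY1, on chromosome 4 from 123396795 to 123403760, had the lowest level of the 10 genes and did not pass the test. It had 3.49, 3.20 and 3.07 FPKM in control libraries and 3.06, 2.41 and 2.76 FPKM in SAR libraries. Control replicate 3 and SAR replicate 1 were nearly level, and the groups only just missed each other. The log2 fold change was -0.24 (SE 0.105, 95% confidence interval -0.49 to 0.00, adjusted p = 0.113 in limma). After rescaling it was -0.36 and passed (adjusted p = 0.038 in limma). Depth was lowest here, with 162 to 310 reads a library.

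Within a library SPRY4 stood at 0.945 ± 0.0303 of SPRY2 in control and at 0.804 ± 0.104 with SAR (SD, n = 3 each), with no overlap between the groups. SPRY1 stood at 0.181 ± 0.0112 and 0.172 ± 0.0184 of SPRY2, and here the groups overlapped. The exact permutation test gave p = 0.1 for the former, adjusted 0.15 over the 6 ratios, and p = 0.5 for the latter.

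The promoters of SPRY2 and SPRY1 are shown because these paralogs had the highest and the lowest level of the 3 Sprouty genes followed. Each sequence is the 250 bases before the first RefSeq start of the gene (GRCh38.p14), in the direction of transcription, and overlaps no exon of GENCODE 29. That of SPRY2 is chr13:80341127-80341376 on the minus strand, and that of SPRY1 is chr4:123396545-123396794 on the plus strand. Capitals mark CCGGAA, the core bound by ETS factors such as ETV4 and ETV5, and TGACG, a short form of the cAMP response element.
SPRY2: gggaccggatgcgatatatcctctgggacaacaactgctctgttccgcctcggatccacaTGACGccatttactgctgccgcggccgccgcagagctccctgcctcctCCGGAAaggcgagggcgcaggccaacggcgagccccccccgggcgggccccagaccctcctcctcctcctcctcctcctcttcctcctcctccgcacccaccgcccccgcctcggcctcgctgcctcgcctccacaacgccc
SPRY1: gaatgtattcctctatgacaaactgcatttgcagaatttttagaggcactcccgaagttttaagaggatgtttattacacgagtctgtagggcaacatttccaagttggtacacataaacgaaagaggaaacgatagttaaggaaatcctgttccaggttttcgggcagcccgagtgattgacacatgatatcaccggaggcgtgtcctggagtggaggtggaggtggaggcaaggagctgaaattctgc

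The windows differ in composition, with 70.4% G and C in SPRY2 and 45.6% in SPRY1. The SPRY2 window holds 1 CCGGAA that starts 142 bases before the gene's start and 1 TGACG that starts 190 bases before it. The SPRY1 window holds neither. On both strands, CCGGAA occurs in 14.5% and TGACG in 21.2% of 35116 RefSeq windows of this length. The AP-1 site TGANTCA (6.57% of windows), the TEAD site GGAATG (11.9%), whose GGAA can overlap an ETS core, and the CArG box bound by SRF (1.16%) were searched as well and occur in neither. RefSeq windows were at hand for 6 of the 10 genes, 10 windows in all. Besides those above, the other start of SPRY1 has a CCGGAA 67 bases before it and the SPRY4 start a TGACG 68 bases before it. Unlike the printed windows, these 2 overlap GENCODE 29 exons of their own gene, by 250 bases in SPRY1 and 170 bases in SPRY4. The windows of SPRED1, SPRED2 and DUSP6 hold none of the 5 motifs. DUSP4, DUSP5, ETV4 and ETV5 were not searched. A match of letters is a description and not a binding site.

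The SPRED genes code for relatives of Sprouty that bring neurofibromin, which inactivates RAS, to the membrane. SPRED1 rose with SAR, the only feedback gene called in that direction. It lies on chromosome 15 from 38252326 to 38357249. Control libraries had 13.8, 13.7 and 13.9 FPKM, and SAR libraries had 20.2, 18.7 and 18.4 FPKM. The control libraries were almost identical, and each SAR library was above them by more than the spread of both groups. The mean was 13.8 ± 0.127 FPKM in control and 19.1 ± 0.987 FPKM with SAR (SD, n = 3 each). The log2 fold change was 0.46 (SE 0.0561, adjusted p = 0.00212 in limma) and 0.34 after rescaling, and the gene was called in all 15 settings.

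SPRED2 had 10.6, 11.8 and 11.5 FPKM in control libraries and 12.6, 11.6 and 12.6 FPKM in SAR libraries. The groups overlapped, since SAR replicate 2 lay among the control libraries. Its log2 fold change was 0.12 (95% confidence interval -0.04 to 0.27, adjusted p = 0.2 in limma), the same as the median of all tested genes, and -0.0049 after rescaling, with an interval from -0.17 to 0.16. SPRED1 was 1.22 ± 0.0724 times SPRED2 within a control library and 1.56 ± 0.0880 times with SAR (SD, n = 3 each). These ratios did not overlap between the groups (exact permutation p = 0.1, adjusted 0.15 over the 6 ratios).

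Neither of the ETV genes, the transcription factors of the group, passed the test as deposited. ETV4 had 22.5, 21.5 and 23.3 FPKM in control libraries and 20.1, 21.9 and 21.4 FPKM in SAR libraries. SAR replicate 2 lay above control replicate 2, and the groups overlapped. The log2 fold change was -0.09 (95% confidence interval -0.22 to 0.05, adjusted p = 0.284 in limma). After rescaling the groups no longer overlapped and ETV4 was called lower at -0.21 (adjusted p = 0.0342 in limma).

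ETV5 had 7.89, 8.57 and 8.37 FPKM in control libraries and 6.49, 7.39 and 7.69 FPKM in SAR libraries. All SAR libraries were below all control libraries, by a margin smaller than the spread within the SAR group. The log2 fold change of -0.20 (SE 0.0795) had an adjusted p of 0.0887 in limma, and -0.32 after rescaling had an adjusted p of 0.0276. ETV5 was 0.369 ± 0.0254 of ETV4 in control and 0.340 ± 0.0184 with SAR (SD, n = 3 each), with overlap between the groups (exact permutation p = 0.2, adjusted 0.24 over the 6 ratios). ETV4 shares 1.89% of its exon bases with DHX8 on the opposite strand, and ETV5 shares 2.83% with DGKG on its own strand.

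Ordered by mean FPKM, the control group ran DUSP5, ETV4, DUSP4, DUSP6, SPRY2, SPRY4, SPRED1, SPRED2, ETV5 and SPRY1. Neighbors whose library values overlapped were ETV4 with DUSP4 and DUSP4 with DUSP6. With SAR the order was DUSP5, DUSP6, ETV4, SPRED1, SPRY2, DUSP4, SPRY4, SPRED2, ETV5 and SPRY1. Here DUSP6 overlapped with ETV4, ETV4 with SPRED1, DUSP4 with SPRY4 and SPRY4 with SPRED2. DUSP4 thus stood at place 3 in control and at place 6 with SAR, and SPRED1 at place 7 and at place 4, while DUSP5 was at the top and ETV5 and SPRY1 at the bottom in both. Of the SAR libraries, replicate 3 was the highest of its group in 6 of the 10 genes, SPRY4, DUSP4 and DUSP6 among them, and it was the lowest in SPRED1 and DUSP5.

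The remaining ERK pathway genes were taken from 3 lists. Of the core from receptors to ERK, 32 of 33 genes were tested, of which 3 were lower and 6 higher, with a median log2 fold change of 0.01. Of all tested genes 9.55% were called lower and 23.7% higher, and these shares also stand beside the counts of the next lists. MAP2K1, which codes for the ERK kinase MEK1, fell from 50.7 ± 1.41 to 34.3 ± 0.992 FPKM (log2 fold change -0.56, adjusted p = 0.000819 in limma). Its paralog MAP2K2, which codes for MEK2, rose from 23.6 ± 0.468 to 31.7 ± 2.16 FPKM (log2 fold change 0.42, adjusted p = 0.00427 in limma). PTPN11, a phosphatase that relays receptor signals to RAS, and SHOC2, which helps to activate RAF, were lower at -0.34 and -0.21 on the log2 scale. The higher genes were the receptors FGFR2 (0.78), FGFR1 (0.48), ERBB2 (0.47) and ERBB3 (0.46), MAP2K2, and the RAS relative MRAS (0.39). MRAS was not called after rescaling (adjusted p = 0.115 in limma) or when any 1 library was left out. Of the 6 fits that left out 1 library, SHOC2 was called in 1 and FGFR1 in 3. MAP2K1 shares 11.5% of its exon bases with AC116913.1 on the opposite strand, which was listed at 1.05 to 3.25 FPKM. After rescaling 9 core genes were lower and 5 higher, beside 15.5% and 13.8% of all tested genes, and the median of the core was -0.11.

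Of other negative regulators, 21 of 23 genes were tested, of which 3 were lower and 4 higher, with a median of 0.17. DUSP10, a phosphatase of the stress-activated MAP kinases, was lower at -0.51 on the log2 scale, as were PEA15, which holds ERK in the cytoplasm, at -0.48, and CBL, a ubiquitin ligase for receptors, at -0.40. Its relative CBLB at 0.51, the RAF inhibitor PEBP1 at 0.46, DUSP1 at 0.36 and the RAS GTPase-activating protein DAB2IP at 0.23 were higher. DUSP1 and DAB2IP were not called after rescaling. Of the 6 fits that left out 1 library, CBL was called in 2, and DUSP1 and DAB2IP in 1 each.

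Of 15 other ERK-responsive genes, all tested, 3 were lower and 3 higher, with a median of 0.03. IER3, an immediate early gene, fell from 112 ± 9.14 to 30.5 ± 3.26 FPKM (SD, n = 3 each), a log2 fold change of -1.87 (adjusted p = 0.000142 in limma) and the only one in these lists beyond -1. Of its exon bases 26.5% are shared with the antisense gene IER3-AS1, which was listed at 0 to 0.228 FPKM, and whether counting used the strand is not stated. EPHA2, an ephrin receptor, was lower at -0.46 and the transcription factor MYC at -0.83. JUNB (0.32), CCND1, the gene of cyclin D1 (0.67), and PLAUR, the urokinase receptor (0.64), were higher, and none of the 3 was called after rescaling. Of the 6 fits that left out 1 library, MYC was called in 3, CCND1 and PLAUR in 2 each and JUNB in 1. JUNB shares 14.2% of its exon bases with HOOK2 on the opposite strand. HOOK2 was listed at 4.96 to 5.45 FPKM in control and 7.325 to 8.25 FPKM with SAR. Of these 15 genes, 12 had their highest control value in replicate 1, against 2 of the 10 feedback genes. In control replicate 2, 11 of the 15 had their lowest control value, against 5 of the 10 feedback genes. The same shares over all tested genes were not counted.

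**Figure D4:**
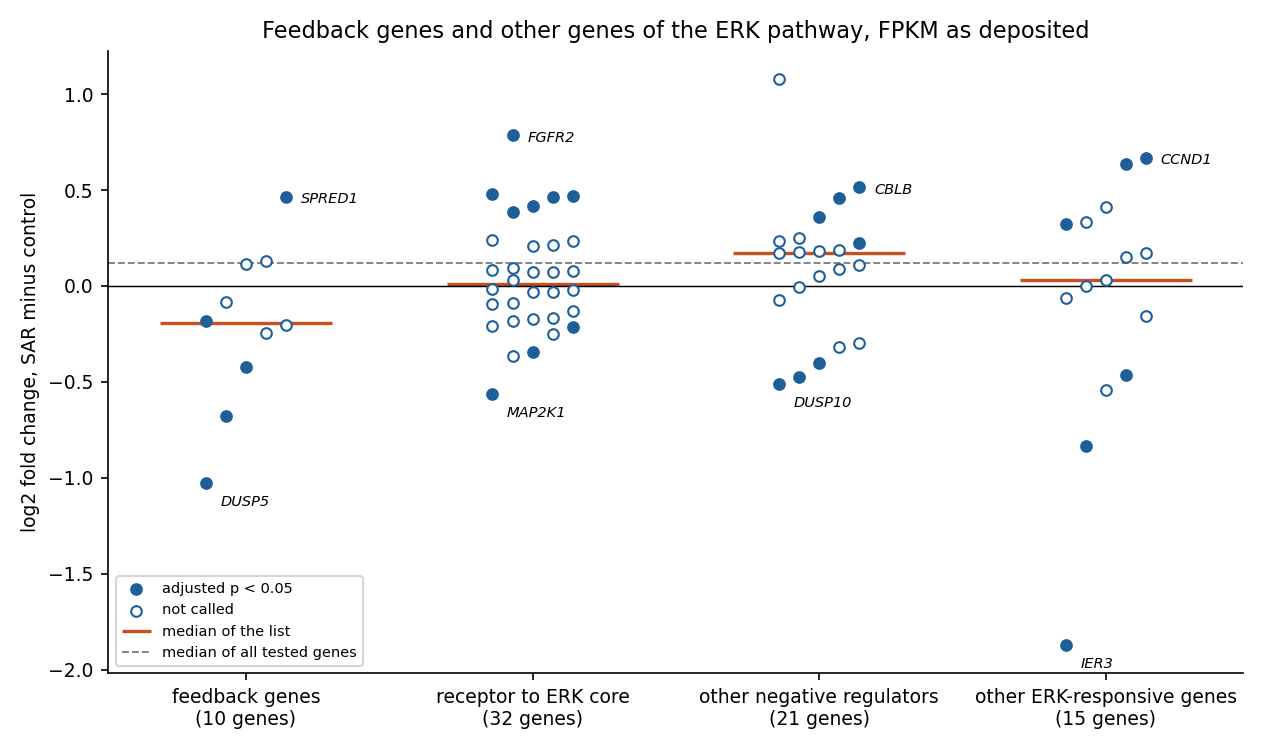
Log2 fold change, SAR minus control as deposited, of the tested genes of the feedback group and of the 3 other ERK pathway lists, 1 point a gene, filled where the adjusted p in limma was under 0.05. Short lines are list medians, at -0.19 for the feedback genes and at 0.01, 0.17 and 0.03 for the others, and the dashed line is the median of all tested genes at 0.12.

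Cell type markers moved with the treatment beside these genes. Of 11 DE markers, all detected, 6 were lower and 4 higher. FOXA2 rose from 23.6 ± 1.38 to 64.0 ± 3.66 FPKM and SOX17 from 31.6 ± 1.84 to 67.5 ± 18.3 FPKM (SD, n = 3 each), and HHEX and KIT were higher as well. The secreted antagonist CER1 fell from 4104 ± 534 to 1683 ± 35.4 FPKM. EOMES fell from 83.1 ± 11.1 to 32.1 ± 2.82 FPKM and CXCR4 from 118 ± 3.78 to 83.2 ± 10.8 FPKM. GSC, GATA4 and GATA6 were lower as well, and GATA6 was called in 2 of the 6 fits that left out 1 library. GATA6 shares 6.08% of its exon bases with the antisense gene GATA6-AS1. That gene was listed at 56.4 to 73.2 FPKM in control and at 24.2 to 29.5 FPKM with SAR. The summed level of the 11 was 3973 to 5079 FPKM in control and 2092 to 2144 FPKM with SAR, and without CER1 it was 433 to 476 FPKM in control and 400.2 to 491 FPKM with SAR. Of 10 pluripotency markers NANOG was lower, from 14.7 ± 1.71 to 5.89 ± 0.604 FPKM, and 3 were higher. SOX2 rose from 22.1 ± 6.42 to 39.8 ± 3.18 FPKM and was also called after rescaling. LIN28A and TDGF1 were higher as deposited but were not called after rescaling. The sum of the 10 markers, most of it LIN28A, TDGF1 and POU5F1, was 1007 to 1126 FPKM in control and 1193 to 1223 FPKM with SAR. Mesoderm markers summed to 21.0 to 23.6 FPKM in control and 28.8 to 32.4 FPKM with SAR. Of these, 5 of 11 were tested, 1 was lower and 2 were higher. KDR, the most abundant of them in control, fell from 13.4 ± 0.289 to 11.5 ± 0.172 FPKM. TBXT rose from 3.51 ± 0.245 to 11.7 ± 2.15 FPKM, and TWIST1 did not pass the test. Of 6 neural markers 2 were tested. OTX1 was higher, from 0.374 ± 0.0195 to 0.857 ± 0.177 FPKM, and NES did not pass the test. PAX6 was listed at 0.0616 to 0.106 FPKM in control and at 0.00263 to 0.0029 FPKM with SAR. SOX1 was listed at 0 in all control libraries and at 0 to 0.167 FPKM with SAR. Neither was tested. The part of such markers in the values of the feedback genes was not tested.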

How the data were processed

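Per the labels, mRNA of 3 control and 3 SAR samples was sequenced as 1 library each. The authors deposited FPKM, without pooling, for 40396 Ensembl gene IDs. The submitters' processing notes name HISAT2, Subread, featureCounts, DESeq2 and the build GRCh38.p13. The annotation release and the strand setting are not given in the sources used here. Beyond its own total no library was scaled to the others, and the balance of higher and lower calls depends on that.

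Linear models were fitted with limma 3.58.1 (R 4.3.3) to log2(FPKM + 0.1) of genes whose mean reached 0.5 FPKM, with moderated variances that follow a trend with expression, Benjamini-Hochberg adjustment and no replicate block. Fold changes on this scale understate those of low genes. The code was tested on simulated data. Read counts were recovered from the steps between FPKM values. At GENCODE 29 exon lengths they came out whole (tolerance 0.02 reads) for 23399 of the 39023 genes in that annotation. For the others, and for all members but SPRY1, the smallest length that gave whole reads in every library was used, so their counts may be too low. In all 99.995% of genes received counts, which served for depth and for a voom test. Counts cover counting error only. Ratios, promoter searches and plots used Python 3.11.15 with numpy 2.4.6, pandas 2.3.3, scipy 1.17.1 and matplotlib 3.10.9.

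Members and lists were chosen with earlier results of these data known. Named were all 10 members, up to 6 genes a direction with the smallest adjusted p in each pathway list, and up to 3 markers a list with the highest mean. SOX1, SOX17, FOXA2, HHEX, KIT, GSC, GATA4, GATA6, NANOG and SOX2 were named after their values were seen. Gene positions are those of GENCODE 29 and promoters those of RefSeq.

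Alternatives were a pseudocount of 1 or of 0.01, quantile normalization, rescaling by median ratios, a mean of 1 FPKM as filter or none, no trend, a replicate block, voom on recovered reads, and each library left out in turn.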

Additional observations from a re-analysis of the deposited data

How the results depend on the processing

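Of 150 fold changes of the 10 feedback genes under 15 alternatives, 131 kept their direction and their side of the threshold in limma, 13 were no longer called, 5 became called and 1 reversed. DUSP5, DUSP4 and SPRED1 were called in each alternative. The reversed value was SPRED2, -0.0049 after median-ratio rescaling.

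Rescaling gave 7 feedback genes lower, 2538 of all genes lower and 2259 higher, 9 core genes lower, 2 other negative regulators higher and 0 other ERK-responsive genes higher. As deposited these were 4, 1563, 3885, 3, 4 and 3. Quantile normalization gave 6 feedback genes lower, joined by SPRY1 (adjusted p = 0.0313) and ETV5 (0.0334) in limma. It also gave 2429 of all genes higher, 5 core genes and 5 other negative regulators lower, 2 of the latter higher and 1 ERK-responsive gene higher. Without the filter 2 feedback genes were lower, since SPRY2 (adjusted p = 0.0552) and SPRY4 (0.0563) were lost in limma, 2 other negative regulators were higher and 0 ERK-responsive genes were. Without the intensity trend SPRY2 was not called (adjusted p = 0.0636 in limma), which left 3 feedback genes lower, and 1 ERK-responsive gene was higher. A voom test on recovered reads gave 6 core genes lower. The cause of these differences was not tested.

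Leaving out 1 library in turn gave 2 to 4 feedback genes lower and 1 higher, and 1 below -1. It gave 833 to 1824 of all genes lower and 2129 to 3751 higher. Core genes were 2 to 4 lower and 4 to 6 higher, other negative regulators 2 to 5 lower and 2 to 5 higher, and ERK-responsive genes 2 to 3 lower and 0 to 4 higher.

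Same-numbered samples did not deviate together, with correlations of deviations of 0.073, 0.0029 and 0.025, and not every sample correlated best with its own number. With the replicate number as a block, 3 feedback genes were lower, SPRY2 having an adjusted p of 0.0616 in limma, 1448 of all genes were lower and 3400 higher, and 2 other negative regulators were higher.

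With 3 libraries a group, exact permutation tests cannot go below p = 0.1, and groups of 3 are too small for a test of outlying samples. Depth was lowest for SPRY1.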
